A study of Eumeta variegata with 6 samples.

Results

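In a transcriptome assembled without a genome from heads of the bagworm moth Eumeta variegata, 1085 of 41283 assembled sequences carried the name of a DNA transposon or of a protein derived from one. A sequence was taken when its best protein match, in NCBI's NR protein collection or, where NR gave no informative name, in Swiss-Prot, was called a transposase, piggyBac, HARBI1, SETMAR, mariner, Tigger, jerky, zinc finger BED, THAP domain, hAT or P-element protein. NR supplied 1020 of these names and Swiss-Prot 65. The letters hAT were read as a word of their own, because inside longer words they also occur in phosphate and phosphatidyl names, of which 188 were set aside. The choice used names and not expression values.

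The study sequenced messenger RNA from heads in 3 male and 3 female samples, to find neuropeptides and their receptors in this species. Sex was the only labelled difference between the groups. For age, developmental stage, strain, treatment and the number of heads pooled, the labels used here give no value. Nor do they call the samples separate animals, so each p-value below measures only the spread between these samples.

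DNA transposons move as DNA: a transposase binds the repeats at the ends of its element, excises the element and inserts it elsewhere in the genome. The enzymes fall into superfamilies such as Tc1/mariner, piggyBac, hAT, pogo, P and Harbinger, and many animal genomes hold large numbers of decayed copies beside a few intact ones. Some transposases have been taken over as ordinary cellular proteins. In human cells SETMAR joins a mariner transposase to a histone methyltransferase, and mammalian jerky and CENP-B descend from pogo-like transposases.

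Grouped by element type from their names, 709 members were Tc1/mariner sequences, 167 piggyBac, 84 hAT, 51 pogo (Tigger and jerky names), 30 P element (THAP and P transposase names) and 25 Harbinger (HARBI1). The other 19 were transposases of no named type. Within Tc1/mariner, 440 sequences carried SETMAR names and 267 carried Mos1 or mariner names. A SETMAR name here came from a match to a database protein and does not by itself mark a methyltransferase. Of the 440, 12 had any protein domain in the deposited Pfam annotation, 9 had a mariner or transposase domain and 1 had a SET domain. For the rest of the 440 no domain was recorded, so the annotation does not say what they encode.

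Pfam domains, an annotation that the selection did not use, matched the named type more closely in some types than in others. THAP domain and zinc finger BED, names used in the selection, are themselves domain names. The THAP matches of P element sequences and the zf-BED matches of hAT sequences are therefore not independent of it. A Pfam domain was recorded for 193 members, or 17.8%. Of the piggyBac sequences with a domain, 79 of 80 had the domain named Transposase IS4, and 13 of 13 Harbinger sequences had a DDE superfamily nuclease domain, the catalytic fold of many transposases. The CENP-B, Tc5 or DDE domains were present in 24 of 25 annotated pogo sequences, the THAP DNA-binding domain in 18 of 23 P element sequences and the hAT family domain in 14 of 19 hAT sequences. Among Tc1/mariner sequences the share was lowest, with a Mos1 or DDE domain in 18 of the 32 that had any domain. In the deposited column of transcription factor families, 56 members were listed as THAP, 27 of them P element and 29 piggyBac sequences, 48 as zf-BED, of which 47 were hAT sequences, and 22 as helix-turn-helix, of which 21 were pogo sequences. Another 13 were listed as C2H2 zinc fingers, of which 12 were piggyBac sequences.

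Many members matched the same protein. The 1020 sequences with an NR name hit 573 different proteins, 434 of these were hit once, and 586 members shared a hit with at least 1 other. In all, 642 had their match in Eumeta japonica, a bagworm of the same genus. The protein with the most matches was a SETMAR-like protein of the butterfly Pieris napi, hit by 75 sequences, and the next was a SETMAR protein of Eumeta japonica, hit by 50. Sequences that share a hit may be copies of 1 element family, fragments of 1 transcript or near-identical copies between which reads were divided, so the value of any single one is uncertain to that extent.

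Most members were expressed at a low level. In FPKM, fragments scaled to sequence length and library size, the median over members of the 6-library mean was 1.96, against 2.14 over all 41283 sequences and 5.32 over the 13509 with a name. A mean of 10 FPKM or more was reached by 64 members, or 5.9%, against 14.8% of all sequences and 35.7% of those with a name. The type medians were 1.99 FPKM for Tc1/mariner, 1.83 for piggyBac, 1.80 for hAT, 2.05 for pogo, 4.23 for P element, 2.22 for Harbinger and 1.65 for transposases of no named type. The highest member in the whole set was a HARBI1 sequence with a mean of 294.5 FPKM, described with its type below.

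**Figure D1:**
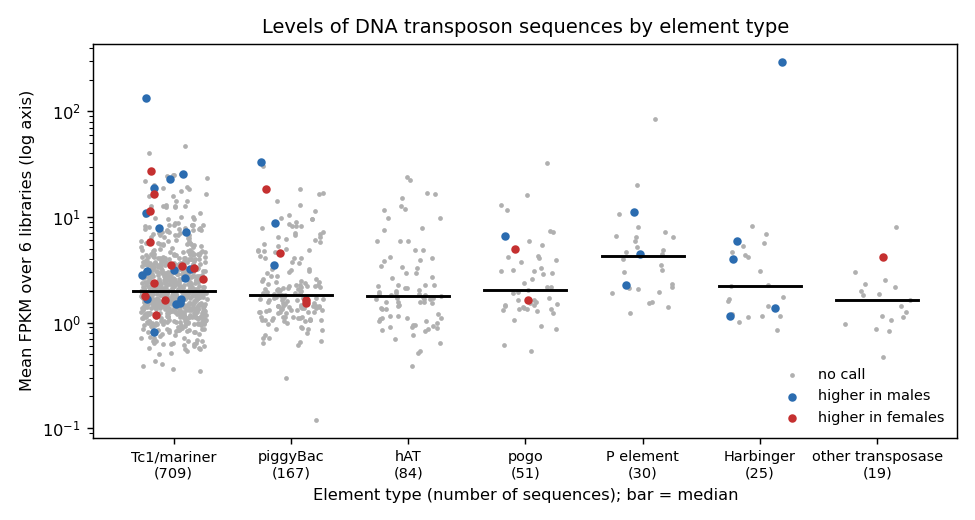
Mean FPKM over the 6 libraries (log axis) for each of the 1085 members, 1 point a sequence, by element type, with the type median as a bar. The type medians lie between 1.65 and 2.22 FPKM except that of P element sequences, at 4.23, and 64 members reach 10 FPKM.

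The files held no read counts, so depth per library is unknown, and the FPKM values of a library summed to between 480295 and 492028. Libraries differed in a way that sex did not explain. Assembled names ended in 1 or 2, a digit that no source used here explains, and male 2, male 3 and female 2 listed fewer sequences ending in 1 at exactly 0 than did male 1, female 1 and female 3, with the order turned round for sequences ending in 2. Over all sequences ending in 1, the share at 0 was 10.7%, 4.4% and 2.96% in males 1 to 3 and 13.2%, 5.42% and 11.3% in females 1 to 3. Since each side of this split holds libraries of both sexes, sex was also fitted with the split as a term. Of the tissue marker lists, 21 neuron sequences summed to 330 to 349 FPKM in males and 330 to 347 in females, so nervous tissue markers were present in each library. Of these, 1 was called higher in males and 1 in females. The 26 eye sequences summed to 124 to 128 FPKM in males and 97.5 to 105 in females, with 2 higher in males and 0 in females. Of the 26, 14 were taken by the word arrestin, a match not restricted to eye arrestins, and summed to 60.4 to 78.9 FPKM per library. The 6 opsin names summed to 15.3 to 18.4 and the 6 chaoptin names to 19.7 to 31.2. The 13 fat body sequences summed to 35.04 to 41.8 FPKM in males and 95.6 to 115 in females, with 0 of 9 tested higher in males and 3 in females. The 16 germ line sequences summed to 71.3 to 77.9 and 71.7 to 76.4, with 1 of 10 tested higher in males and 0 in females. Muscle markers (18) summed to 1394 to 1419 FPKM in males and 1358 to 1705 in females, with 4 called higher in males and 3 in females. Hemocyte markers (9) summed to 109 to 223 and 146 to 268, with 2 higher in males. The 1 silk gland sequence lay at 21.6 to 28.1 and 13.2 to 29.3, not called. Single names carried much of some sums. Per library, 3 paramyosin names summed to 644 to 876 FPKM and 2 hemolin names to 42.8 to 214. In the germ line list, 1 vasa name lay at 27.1 to 35.001 and 8 chorion names summed to 19.1 to 26.9. Over all sequences tested, 4.4% were called higher in males and 2.7% in females. No list had a sequence listed at 0 in all libraries. The part of these tissue differences in the results below was not tested, and in whole heads fewer cells of a type and less RNA per cell cannot be told apart.

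Among members ending in 1 the same libraries stood apart, while among those ending in 2 the sides of the split overlapped. Of the 597 members ending in 1, the share listed at 0 was 5.36%, 2.51% and 0.838% in males 1 to 3 and 6.87%, 1.84% and 5.03% in females 1 to 3. Of the 488 ending in 2, it was 3.69%, 5.74% and 3.89% in males and 2.25%, 3.28% and 2.87% in females. In each library the member share was below that of all sequences with the same ending, a difference that was not tested.

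**Figure D2:**
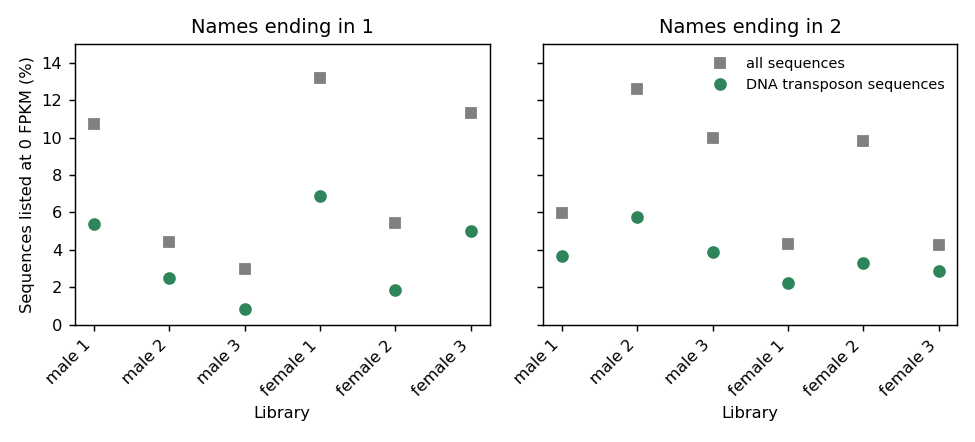
Percent of sequences listed at exactly 0 FPKM in each of the 6 libraries, for members and for all sequences, separately for names ending in 1 and in 2. For names ending in 1, male 2, male 3 and female 2 lie below the other libraries, from 0.838% to 2.51% of members against 5.03% to 6.87%.

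The design compares the heads of the sexes. Sequences with at least 1 FPKM in at least 3 libraries were tested with limma on log2(FPKM + 1), and a difference was called at a Benjamini-Hochberg adjusted p below 0.05 over all 35198 sequences tested. Of the members, 967 passed this filter, and the 118 that did not had means from 0.12 to 1.42 FPKM. A sequence below 1 FPKM in every library of 1 sex passed only through the other sex. Neither its contrast nor its p is independent of the filter. Among the called members counted below, this holds for DN6867, DN16003, DN13559, DN8589, DN23454, DN16360, DN5761 and DN7843, which were higher in males. It also holds for DN11199, DN18803, DN15253, DN21950, DN12709 and DN5443, which were higher in females. Differences are given as male minus female on the log2(FPKM + 1) scale, which understates the change of low sequences.

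Calls among the members were few, and their share lay near or below that over all sequences. In males 29 members were higher, 3.0% of those tested, where the share over all sequences was 4.4%. In females 19 members were higher, 1.96%, where the share over all sequences was 2.7%. Together these were 48 members, or 4.96%, against 7.11% of all sequences, and 188 members (19.4%) had an unadjusted p below 0.05 in the same limma fit, against 23.3%. Below 2 FPKM 13 of 434 members were called against 2.58% of all sequences, from 2 to below 10 FPKM 23 of 469, or 4.9%, against 6.28%, and at 10 FPKM or more 12 of 64, or 18.8%, against 19%.

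Over both name endings together the members did not lie to one side. The median difference over the 967 was 0.02 on the log2(FPKM + 1) scale, against 0.05 over all sequences, and 52.5% of members were above 0, against 54.7%. All 3 male libraries lay above all 3 female libraries for 186 members (19.2%), where this held for 18.2% of all sequences, and the reverse held for 115 (11.9%) against 12%. Among the called members the size of the difference ran from 0.26 to 2.28 with a median of 1.03, and 14 of those higher in males and 12 of those higher in females differed by at least 1. The endings differed in sign: the 527 tested members ending in 1 had a median of 0.10 with 61.9% above 0, and the 440 ending in 2 a median of -0.07 with 41.4% above 0. Over all sequences the medians by ending were 0.15 and -0.07. By calls, 19 members ending in 1 were higher in males and 7 in females, where the shares over all sequences of that ending were 5.59% and 1.96%. Of those ending in 2, 10 were higher in males and 12 in females, where the shares were 3.03% and 3.56%.

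With the library split as a term, 13 members were higher in males, 1.34% of those tested against 2.02% of all sequences, and 4 in females, 0.414% against 1.2%. With any single library left out the calls fell to between 3 and 17 higher in males and between 4 and 8 higher in females. Over all sequences they fell as well, from 1549 to between 467 and 1122 higher in males. Those higher in females fell from 952 to between 349 and 654. Of the 48, 7 were called under each of the 6 omissions and with the library split as a term: SETMAR sequences DN342, DN250 and DN180, the THAP domain sequence DN5239, the Tigger sequence DN5072, the jerky sequence DN5443 and the piggyBac sequence DN623, all described below. The same count over all called sequences is not given here, so whether 7 of 48 is many or few cannot be said. Over all 967 members tested, the median difference was 0.02 in males 2 and 3 against female 2 alone and 0.05 in male 1 against females 1 and 3 alone. Rescaling the libraries by median of ratios, which moved the median of all sequences from 0.05 to -0.01, gave 23 members higher in males and 25 in females, and 1321 and 1329 of all sequences in place of 1549 and 952.

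**Figure D3:**
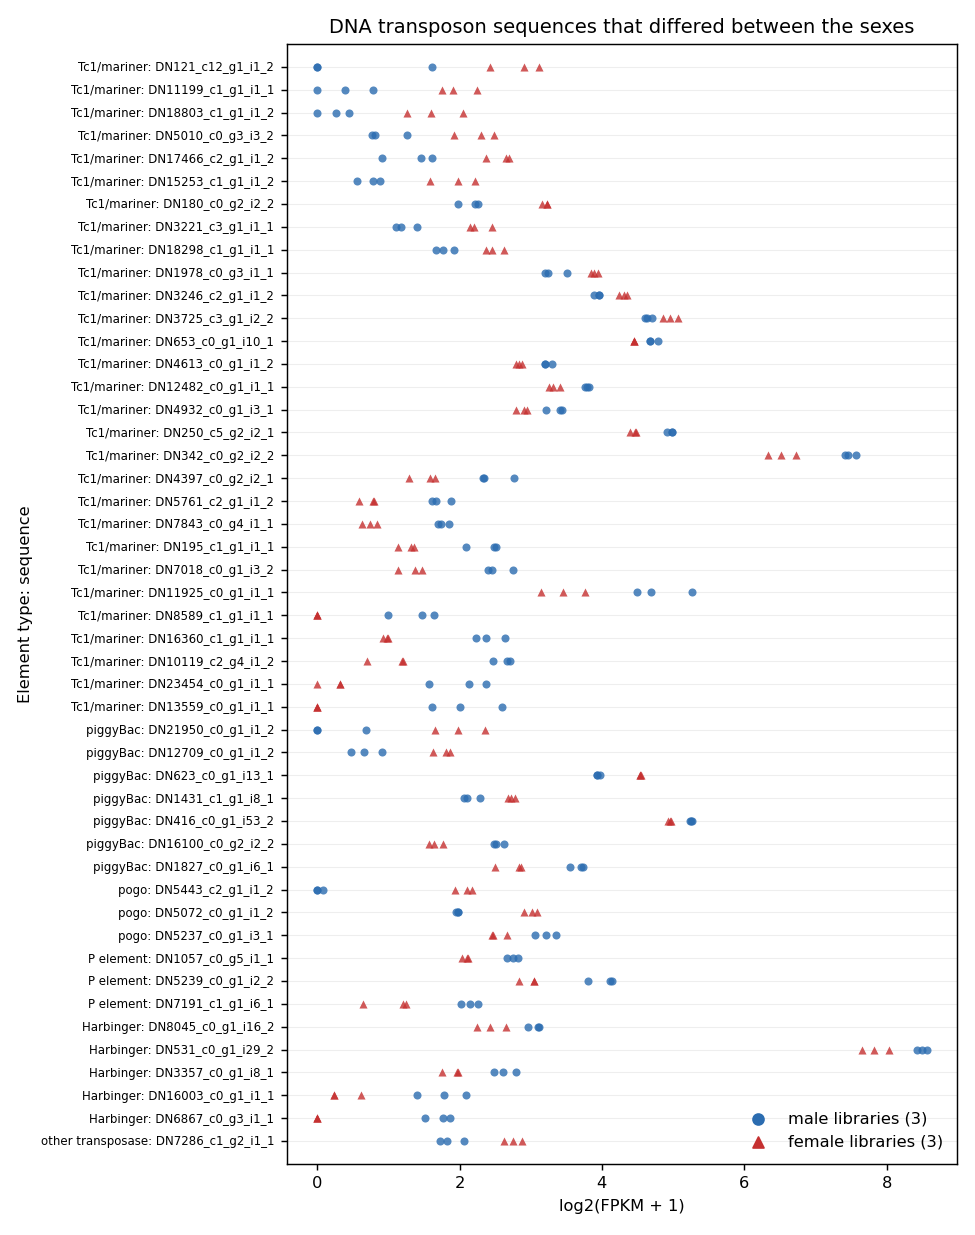
Values of log2(FPKM + 1) in each of the 6 libraries for the 48 members called between the sexes, 1 row a sequence, with males as circles and females as triangles. The 29 sequences higher in males and the 19 higher in females span differences from 0.26 to 2.28.

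Harbinger sequences, named for HARBI1, the protein left by a Harbinger transposase in vertebrates, had the largest share of calls among the types with all 6 libraries. Of 25, all tested, 5 were higher in males, or 20%, where the share over all sequences was 4.4%, and 0 in females. Among these 5, DN6867 and DN16003 passed the filter only through the males, so their calls are not independent of it. Of the 25, 8, or 32%, had an unadjusted limma p below 0.05, against 23.3% of all sequences. The median difference was 0.41 on the log2(FPKM + 1) scale, against 0.05 over all sequences. All males lay above all females for 13 of the 25, or 52%, against 18.2% of all sequences, and all females above all males for 2, or 8%, against 12%. With the median-of-ratios scaling 4 were higher in males and the median was 0.34, and with the library split as a term 2 were. With 1 library left out, 0 calls were made without male 2 or without male 3, 1 without female 2 or without male 1, and 2 without female 1 or without female 3, while the median stayed between 0.31 and 0.47. Under each of these omissions the P element sequences kept 1 call of 30 tested and the pogo sequences at least 2 of 46. Among the omissions, Harbinger therefore had the largest share of calls only without female 1 or without female 3. Within males 2 and 3 against female 2 the median was 0.33, and within male 1 against females 1 and 3 it was 0.52. Whether the type differs from other members was not tested.

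The most abundant member, HARBI1 sequence TRINITY_DN531_c0_g1_i29_2, was at 378, 359 and 343 FPKM in males 1 to 3 and at 261, 225 and 201 in females 1 to 3. Every male lay above every female, by more than the spread within either sex. The means were 360 ± 17.3 and 229 ± 30.1 FPKM (SD, n = 3 each), a difference of 0.66 (SE 0.10; limma adjusted p = 0.018). The call ended without female 2 or without any 1 of the males, where the adjusted p reached 0.076, and lay at the threshold with the library split as a term (limma adjusted p = 0.0499973).

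The sequence with the sharpest contrast of the type, TRINITY_DN6867_c0_g3_i1_1, was at 1.86, 2.40 and 2.66 FPKM in males and listed at 0 in all 3 females (limma adjusted p = 0.012). No library of either sex exceeded 3 FPKM, and the call ended without male 2 or male 3, with adjusted p up to 0.059, and with a pseudocount of 0.1. TRINITY_DN16003_c0_g1_i1_1 was at 3.28, 2.45 and 1.65 FPKM in males and 0.173, 0.531 and 0.174 in females, a difference of 1.40 (SE 0.29; limma adjusted p = 0.040). TRINITY_DN3357_c0_g1_i8_1 was at 4.57, 5.96 and 5.08 FPKM in males and 2.38, 2.93 and 2.90 in females, a difference of 0.73 (SE 0.15; limma adjusted p = 0.039). The sexes did not overlap for either sequence. TRINITY_DN8045_c0_g1_i16_2 was at 7.67, 7.55 and 6.78 FPKM in males and 4.37, 5.27 and 3.76 in females, a difference of 0.62 (SE 0.13; limma adjusted p = 0.045). The last 3 calls each ended when any 1 of the 6 libraries was left out, with limma adjusted p from 0.053 to 0.14, and with the split term. That of DN16003 also ended with a pseudocount of 0.1, and that of DN8045 with the median-of-ratios scaling. TRINITY_DN1641_c0_g1_i5_2, the second most abundant Harbinger sequence, had males at 8.82, 9.19 and 8.95 FPKM and females at 7.51, 8.67 and 5.68. Its males also lay above its females, but the difference of 0.29 did not pass (limma adjusted p = 0.29).

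Of the 30 P element sequences, all tested, 3 were higher in males, or 10%, where the share over all sequences was 4.4%. In females 0 were higher, where that share was 2.7%. THAP proteins share a zinc-binding DNA-binding domain with the transposase of the Drosophila P element. TRINITY_DN5239_c0_g1_i2_2, named THAP domain-containing protein 2, was at 16.3, 16.6 and 12.9 FPKM in males and 6.12, 7.26 and 7.24 in females. Its lowest male stood well above its highest female, with means of 15.3 ± 2.04 and 6.87 ± 0.65 FPKM (SD, n = 3 each) and a difference of 1.04 (SE 0.12; limma adjusted p = 0.0068). The limma adjusted p stayed at or under 0.038 with any library left out and was 0.028 with the split term.

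TRINITY_DN1057_c0_g5_i1_1, named for THAP9, the human THAP protein that keeps transposase activity, was at 5.33, 5.72 and 6.06 FPKM in males and 3.29, 3.33 and 3.12 in females, a difference of 0.66 (SE 0.11; limma adjusted p = 0.023). A P transposase, TRINITY_DN7191_c1_g1_i6_1, was at 3.04, 3.78 and 3.42 FPKM in males and 0.566, 1.32 and 1.39 in females, a difference of 1.10 (SE 0.24; limma adjusted p = 0.048). Neither overlapped between the sexes, and both calls ended without any 1 of the 6 libraries, with limma adjusted p from 0.050 to 0.16, and with the split term. The call of DN7191 also ended with the median-of-ratios scaling and with a pseudocount of 0.1 or 0.5. The most abundant sequences of the type were not called. The THAP9 sequence TRINITY_DN572_c0_g1_i23_2, which Pfam annotates with other domains, had males at 92.4, 84.4 and 86.8 FPKM and females at 84.8, 76.9 and 85.5, a difference of 0.09 (limma adjusted p = 0.43). The P transposase TRINITY_DN388_c0_g1_i7_1 had males at 19.4, 20.005 and 18.3 FPKM and females at 18.4, 22.1 and 21.7, a difference of -0.10 (limma adjusted p = 0.54). Both sequences overlapped between the sexes.

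Among 636 Tc1/mariner sequences tested, the type that cuts and pastes into TA dinucleotides, 17 were higher in males and 12 in females. This was 4.56% in all, against 7.11% of all sequences, and the median difference was 0.00. Under median of ratios the counts became 13 and 18, and under the split term 8 and 1. The SETMAR names gave 11 and 8 of these calls and the Mos1 or mariner names 5 and 4.

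The most abundant Tc1/mariner member, SETMAR sequence TRINITY_DN342_c0_g2_i2_2, was at 174, 170 and 190 FPKM in males and 79.4, 105 and 90.3 in females. The male and female values lay far apart, with means of 178 ± 10.2 and 91.5 ± 12.6 FPKM (SD, n = 3 each), a difference of 0.96 (SE 0.10; limma adjusted p = 0.0060). The limma adjusted p was at most 0.034 with any library left out and 0.019 with the split term. The next in abundance, SETMAR-like sequence TRINITY_DN12_c0_g1_i16_2, whose only Pfam domain was the trichohyalin-plectin-homology domain, was at 51.4, 50.5 and 51.8 FPKM in males and 45.1, 43.0 and 38.6 in females. Its males lay above its females by 0.27 (SE 0.06), just outside the threshold (limma adjusted p = 0.058), and inside it without female 1 (0.045) and with libraries rescaled to a common sum.

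Among the 6 Tc1/mariner sequences with the largest differences toward males, several had females at or near 0. SETMAR sequence TRINITY_DN13559_c0_g1_i1_1 was at 3.03, 5.05 and 2.05 FPKM in males and listed at 0 in all 3 females (limma adjusted p = 0.016). The partial mariner transposase TRINITY_DN8589_c1_g1_i1_1 was at 1.77, 2.12 and 1.002 FPKM in males, listed at 0 in female 2 and at values below 1e-06 in females 1 and 3 (limma adjusted p = 0.037). SETMAR sequence TRINITY_DN23454_c0_g1_i1_1 was at 1.97, 4.17 and 3.38 FPKM in males and 0, 0.248 and 0.243 in females, a difference of 1.81 (SE 0.30; limma adjusted p = 0.021). In all 3 the males were low and far apart from each other, and none overlapped between the sexes. The call of DN13559 ended without female 2, female 3, male 1 or male 2 (adjusted p up to 0.063), that of DN23454 without any library but male 1 (up to 0.085) and that of DN8589 without any of the 6 (limma adjusted p 0.063 to 0.12). That of DN8589 also ended with a pseudocount of 0.1 (limma adjusted p = 0.12).

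The other 3 were expressed in both sexes. SETMAR-like sequence TRINITY_DN10119_c2_g4_i1_2 was at 4.52, 5.36 and 5.55 FPKM in males and 0.620, 1.29 and 1.32 in females, a difference of 1.58 (SE 0.21; limma adjusted p = 0.011). SETMAR sequence TRINITY_DN16360_c1_g1_i1_1 was at 3.70, 5.24 and 4.17 FPKM in males and 0.894, 0.974 and 0.990 in females, a difference of 1.45 (SE 0.19; limma adjusted p = 0.011). Both kept the sexes apart, and both calls ended without male 2 or male 3, with adjusted p up to 0.061 and 0.057. SETMAR sequence TRINITY_DN11925_c0_g1_i1_1 was at 37.5, 21.4 and 24.8 FPKM in males and 12.6, 10.01 and 7.82 in females, a difference of 1.36 (SE 0.24; limma adjusted p = 0.026). Male 1 was the highest library by a wide margin, and this call ended without any library but female 1 (adjusted p up to 0.082).

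Of the Tc1/mariner sequences higher in females, the largest difference was in SETMAR sequence TRINITY_DN121_c12_g1_i1_2, listed at 0 in males 1 and 2, at 2.05 FPKM in male 3 and at 7.69, 6.502 and 4.36 in females. The difference was -2.28 (SE 0.49; limma adjusted p = 0.045), and among the omissions the call held only without male 3 (limma adjusted p up to 0.13 in the others). The call also ended with a pseudocount of 0.1 or 0.5 (limma adjusted p = 0.10 and 0.059) and with no filter on low values. The Mos1 sequence TRINITY_DN11199_c1_g1_i1_1 was at 0, 0.723 and 0.309 FPKM in males and 2.38, 2.74 and 3.73 in females, a difference of -1.58 (SE 0.30; limma adjusted p = 0.032). A second Mos1 sequence, TRINITY_DN5010_c0_g3_i3_2, was at 0.762, 1.40 and 0.705 FPKM in males and 2.78, 3.94 and 4.61 in females, a difference of -1.29 (SE 0.25; limma adjusted p = 0.036). Mos1 is the active mariner element first found in Drosophila mauritiana, and in both sequences every female lay above every male.

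SETMAR sequence TRINITY_DN18803_c1_g1_i1_2 was at 0.205, 0 and 0.361 FPKM in males and 3.13, 1.39 and 2.03 in females, a difference of -1.40 (SE 0.30; limma adjusted p = 0.046). TRINITY_DN17466_c2_g1_i1_2, also SETMAR, was at 2.06, 1.74 and 0.883 FPKM in males and 5.48, 4.18 and 5.29 in females, a difference of -1.25 (SE 0.23; limma adjusted p = 0.031). SETMAR-like TRINITY_DN15253_c1_g1_i1_2 was at 0.728, 0.840 and 0.472 FPKM in males and 1.99, 2.94 and 3.66 in females, a difference of -1.18 (SE 0.26; limma adjusted p = 0.048). No female of these sequences fell into the male range. The calls of DN11199, DN18803, DN17466 and DN15253 ended without any 1 of the 6 libraries, with limma adjusted p from 0.057 to 0.14, and that of DN5010 without any but female 1 (up to 0.11). Those of DN11199, DN18803 and DN15253 also ended with a pseudocount of 0.1, and that of DN18803 with 0.5. DN18803 and DN15253 were also not called with no filter, with a filter on mean FPKM, or with each name ending fitted alone. None of the 6 largest female differences passed with the split term, with limma adjusted p from 0.062 to 0.10.

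A pair of SETMAR sequences outside the largest differences was chosen after their values were seen, because their calls held under every library omission. TRINITY_DN250_c5_g2_i2_1 was at 29.3, 30.7 and 30.7 FPKM in males and 21.3, 19.98 and 21.1 in females, a difference of 0.52 (SE 0.05; limma adjusted p = 0.0044). TRINITY_DN180_c0_g2_i2_2 was at 3.79, 2.94 and 3.64 FPKM in males and 7.96, 8.38 and 8.39 in females, a difference of -1.06 (SE 0.11; limma adjusted p = 0.0059). Their replicates lay close together, and the 2 sequences differed between the sexes in opposite directions.

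The large groups of sequences with 1 shared match showed no common direction. Over all sequences tested, 4.4% were called higher in males and 2.7% in females. Of the 75 that matched the Pieris napi protein, 73 were tested, 0 were higher in males and 2 in females, and the differences ran from -1.47 to 1.21 with a median of -0.04. Their summed level was 202.5, 228.4 and 197.1 FPKM in males and 202.5, 216.1 and 221.0 in females, which overlap. Of the 50 that matched the Eumeta japonica protein, 46 were tested, 0 were higher in males and 2 in females, and the sums were 121.9, 132.8 and 121.6 FPKM in males and 120.3, 122.0 and 132.2 in females, again overlapping.

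Of 145 piggyBac sequences tested, 3 were higher in males and 4 in females, 4.83% in all against 7.11% of all sequences. piggyBac, first isolated from a moth cell line, inserts at TTAA and leaves no footprint on excision. TRINITY_DN1827_c0_g1_i6_1 was at 12.3, 12.1 and 10.7 FPKM in males and 4.65, 6.14 and 6.29 in females, a difference of 0.93 (SE 0.12; limma adjusted p = 0.011). TRINITY_DN16100_c0_g2_i2_2 was at 4.58, 5.18 and 4.71 FPKM in males and 2.41, 1.97 and 2.11 in females, a difference of 0.88 (SE 0.14; limma adjusted p = 0.019). Both had clearly separate sexes. The first call ended without male 1 or male 2 (adjusted p up to 0.056) and the second without any library but female 1 (up to 0.089) and with the split term (limma adjusted p = 0.058).

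Higher in females were TRINITY_DN21950_c0_g1_i1_2, at 0, 0 and 0.609 FPKM in males and 4.11, 2.14 and 2.95 in females, with a difference of -1.77 (SE 0.32; limma adjusted p = 0.029), and 3 others. TRINITY_DN12709_c0_g1_i1_2 was at 0.389, 0.582 and 0.878 FPKM in males and 2.66, 2.10 and 2.49 in females, a difference of -1.09 (SE 0.24; limma adjusted p = 0.046). TRINITY_DN1431_c1_g1_i8_1 was at 3.89, 3.29 and 3.19 FPKM in males and 5.89, 5.38 and 5.59 in females, a difference of -0.57 (SE 0.12; limma adjusted p = 0.042). Every female exceeded every male in these 3 sequences, and each call ended without any 1 of the 6 libraries (limma adjusted p 0.050 to 0.13) and with the split term. The calls of DN21950 and DN12709 also ended with a pseudocount of 0.1. That of DN12709 ended as well with a pseudocount of 0.5, with no filter, with a filter on mean FPKM and with each name ending fitted alone.

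The fourth, TRINITY_DN623_c0_g1_i13_1, had the smallest p of all members and replicates that nearly coincided. It was at 14.3, 14.2 and 14.7 FPKM in males and 22.1, 22.4 and 22.3 in females, means of 14.4 ± 0.26 and 22.2 ± 0.14 FPKM (SD, n = 3 each), a difference of -0.60 (SE 0.05; limma adjusted p = 0.0030). With any library left out the limma adjusted p was at most 0.023. Its Pfam domains were Transposase IS4 together with CHY zinc finger and RING domains, and its Swiss-Prot name was RING finger and CHY zinc finger domain-containing protein 1, a ubiquitin ligase. The most abundant piggyBac sequence, TRINITY_DN416_c0_g1_i53_2, had the Swiss-Prot name annexin B10, a calcium-dependent membrane-binding protein. It was at 37.3, 36.8 and 37.1 FPKM in males and 29.98, 30.2 and 29.5 in females, a difference of 0.30 (SE 0.04; limma adjusted p = 0.011) whose call ended without any 1 of the males (adjusted p up to 0.064). The second, TRINITY_DN222_c0_g1_i16_1, had the Swiss-Prot name of VAMP7, a vesicle fusion protein, and was at 29.7, 29.6 and 32.2 FPKM in males and 29.5, 32.1 and 30.3 in females, overlapping, with a difference of -0.01 (limma adjusted p = 0.96).

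Of 46 pogo sequences tested, 1 was higher in males and 2 in females, 6.52% in all against 7.11% of all sequences. The jerky homolog-like sequence TRINITY_DN5443_c2_g1_i1_2 was listed at 0 in males 1 and 2, was at 0.0633 FPKM in male 3 and at 3.54, 2.83 and 3.29 in females. This near absence in all 3 males gave a difference of -2.04 (SE 0.22; limma adjusted p = 0.0061). The Tigger 4 sequence TRINITY_DN5072_c0_g1_i1_2 was at 2.93, 2.88 and 2.94 FPKM in males and 7.14, 7.48 and 6.48 in females, a difference of -1.03 (SE 0.11; limma adjusted p = 0.0054). Both calls held without any 1 library, with limma adjusted p at most 0.033, and with the split term (0.022 and 0.023).

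The Tigger 6-like sequence TRINITY_DN5237_c0_g1_i3_1 was at 8.25, 9.26 and 7.33 FPKM in males and 4.56, 4.47 and 5.37 in females, a difference of 0.68 (SE 0.12; limma adjusted p = 0.026). Its sexes did not overlap, and the call ended without any library but female 3 (adjusted p up to 0.096) and with the split term (limma adjusted p = 0.066). The most abundant pogo sequences were not called. TRINITY_DN5968_c0_g1_i1_1, Tigger 4-like in NR and a transfer RNA methyltransferase in Swiss-Prot, was at 31.7, 31.5 and 33.9 FPKM in males and 32.8, 33.8 and 31.9 in females (limma adjusted p = 0.85). TRINITY_DN299_c0_g2_i2_1, Tigger 1 in NR and actin-related protein 3 in Swiss-Prot, was at 15.8, 16.0 and 15.7 FPKM in males and 16.2, 16.6 and 17.5 in females (limma adjusted p = 0.48). In the last of these the females lay just above the males, and the difference was not called.

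No hAT sequence was called, where the share over all sequences was 7.11%. Of 70 tested in the limma fit, 12, or 17.1%, had an unadjusted p below 0.05, against 23.3% of all sequences. When female 1 was left out, 1 sequence was called, higher in males, where 3.19% of all sequences were. The other settings run over the samples gave 0 calls. The BED zinc finger of these sequences is a DNA-binding domain of hAT transposases and of cellular ZBED proteins. The most abundant, the ZBED4 sequences TRINITY_DN235_c0_g1_i8_2 and TRINITY_DN94_c0_g1_i17_1, were at 24.1, 26.9 and 23.6 and at 24.4, 22.3 and 21.3 FPKM in males. In females they were at 21.2, 23.6 and 24.6 and at 25.4, 20.5 and 19.3, inside or across the male range, with differences of 0.10 and 0.07 (limma adjusted p = 0.49 and 0.78). Of 15 transposases of no named type tested, 1 was called, 6.67% against 7.11% of all sequences. This was the partial transposase TRINITY_DN7286_c1_g2_i1_1, at 2.55, 2.31 and 3.19 FPKM in males and 5.15, 6.35 and 5.70 in females, a difference of -0.87 (SE 0.15; limma adjusted p = 0.024). Every female lay above every male, and the call ended without female 2, female 3, male 1 or male 2 (adjusted p up to 0.085) and with the split term (limma adjusted p = 0.054). The most abundant of the type, TRINITY_DN11870_c0_g1_i1_2, was at 7.63, 7.79 and 8.03 FPKM in males and 9.38, 8.23 and 7.28 in females, which overlap (limma adjusted p = 0.74).

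The summed level of all 1085 members was 4367, 4528 and 4283 FPKM in males and 3978, 4080 and 3946 in females, or 0.888%, 0.943% and 0.886% of the library sum against 0.809%, 0.831% and 0.807%. Each male sum lay above each female sum. The HARBI1 sequence DN531 and the SETMAR sequence DN342 supplied 12.6%, 11.7% and 12.4% of the member sum in males and 8.55%, 8.07% and 7.38% in females. Without these 2 sequences the sums were 3815, 3999 and 3750 FPKM in males and 3638, 3751 and 3655 in females. The sexes then overlapped only through male 3 (3750.09) and female 2 (3750.64), and every other male sum lay above every female sum. With the median-of-ratios scaling the sums without them also overlapped, at 3718, 3786 and 3773 in males and 3755, 3814 and 3751 in females.

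**Figure D4:**
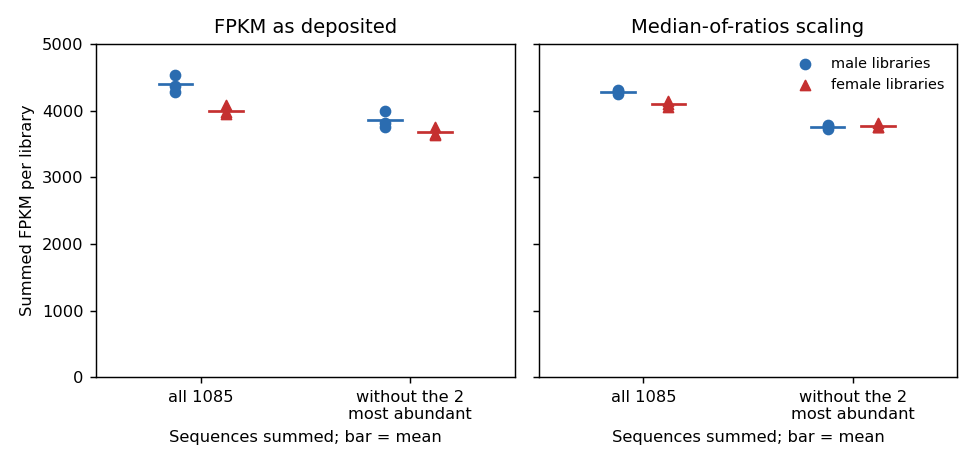
Summed FPKM of all members, and of members without the 2 most abundant sequences, in each library (points; bars are means of 3), with the sexes in different colours, for FPKM as deposited (left) and after median-of-ratios scaling (right). As deposited, with all members, the males sit between 4283 and 4528 and the females between 3946 and 4080. Without the 2 sequences the ranges overlap in both panels, in the left panel only through male 3 and female 2.

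A second annotation gave some members another identity. Swiss-Prot named 453 members, and for 23 of these the name was that of another kind of protein, a class chosen after the data were seen. These 23 had a median of 11.9 FPKM, against 2.27 for the 430 whose Swiss-Prot name was also that of a mobile element or its derivative and 1.77 for the 632 with no Swiss-Prot name. A level of 10 FPKM or more was reached by 14 of the 23, or 60.9%, against 7.21% and 3.01%. Besides annexin B10, VAMP7 and Arp3 they included DnaJ homolog B9, a chaperone, with a mean of 25.3 FPKM in TRINITY_DN2147_c0_g1_i5_1, and lingerer, needed for normal copulation in Drosophila, with 24.9 FPKM in TRINITY_DN125_c0_g1_i47_1. For such sequences the level may belong to the cellular gene or to the transposase, which these values cannot tell apart. Without the 23, 28 members were higher in males and 18 in females.

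Sequences of 2 related kinds were listed beside the members. Of 234 sequences with retrotransposon names, elements that move through an RNA copy, 145 were tested, 8 were higher in males and 3 in females, 7.59% against 7.11% of all sequences, and their median level was 1.20 FPKM. The other kind was 30 sequences named for proteins of transposon silencing, among them Argonautes, Tudor proteins and helicases of the piRNA pathway. Of the 26 tested, 3.85% were called, against 7.11% of all sequences, 0 higher in males and 1 in females. That 1, a putative helicase MOV-10 (TRINITY_DN6118_c1_g2_i1_1), was at 2.70, 3.28 and 3.09 FPKM in males and 4.97, 5.41 and 5.29 in females, a difference of -0.63 (SE 0.12; limma adjusted p = 0.035). Its sexes were well apart, and the call ended without any 1 of the 6 libraries (limma adjusted p 0.073 to 0.11) and with the split term (0.069). Of the 30, 11 were named ANTAGONIST OF LIKE HETEROCHROMATIN PROTEIN 1, in Arabidopsis a protein itself derived from a Harbinger transposase, of which 10 were tested and 0 called, so the list holds fewer silencing proteins than its size says. The vasa helicase sequence, TRINITY_DN8300_c0_g1_i2_2, was at 27.1, 30.5 and 27.4 FPKM in males and 33.2, 33.2 and 35.001 in females. Its females lay above its males by a difference of -0.25 that did not pass (limma adjusted p = 0.067).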

How the data were processed

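Messenger RNA of 6 head libraries, 3 male and 3 female, had been assembled and annotated by the authors. They deposited 1 table of FPKM values per assembled sequence with NR, Swiss-Prot and Pfam annotation, per the file headers. Trimmomatic, HTSeq and R 3.2.0 are named, with no role, per the submitters' processing notes. The libraries came from a stranded TruSeq kit, per the labels' protocols. The aligner and assembler were not given in the sources used here. FPKM values did not fall on whole-read steps (at most 4.88% of low ratios between libraries lay in 1 window of 0.02 log2), and 711 values were above 0 but below 1e-06, so depth is unknown, no reads were recovered and no counting interval is given.

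From the deposited FPKM, sequences with at least 1 FPKM in at least 3 of 6 libraries were tested with limma 3.58.1 in R 4.3.3, with an intensity trend, on log2(FPKM + 1), with Benjamini-Hochberg adjustment over all 35198 and a threshold of 0.05. The script was tested on simulated data. Groups came from the sex label. Alternatives were other pseudocounts, filters, scalings, a replicate block, the library split, a fit within each name ending, a minimum fold change, other readings of the name rule and leaving out each library. In each element type, up to 6 called members in each direction, by size of difference, and the 2 most abundant members were named. Of the silencing list, up to 3 called members in each direction were named, and vasa, the most abundant of the list, was added after its values were seen. The members and lists were chosen with earlier results of these data known. No nucleotide or protein sequence was used here.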

Additional observations from a re-analysis of the deposited data

How the results depend on the processing

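Depth is unknown, so low members near 1 FPKM cannot be given a counting error, and single values of sequences with a shared match are uncertain. Against 29 members higher in males and 19 in females, the library split as a term gave 13 and 4, a minimum log2 difference of 1 gave 0 and 0 (22 and 9 of all sequences), and a pseudocount of 0.1 gave 23 and 12. Reading hAT inside any word added phosphate names and gave 34 and 31. Leaving out 1 library gave 3 to 17 higher in males and 4 to 8 in females, lowest in males without male 2 and highest without female 1. Over all sequences the same omissions gave 467 to 1122 and 349 to 654, against 1549 and 952. Replicate numbers were not taken as a pairing of the samples. Same-numbered deviations correlated at 0.11, 0.12 and -0.05. Males 1 and 2 correlated best with the female of the same number and male 3 with female 2. Male 2, male 3 and female 2 also share a side of the library split, so these values do not settle whether samples were paired. A replicate block gave 6 and 4 calls, 0.62% and 0.414% of members tested against 1.06% and 0.733% of all sequences. The other alternatives (common sum, each ending alone, mean filter, median of ratios, no filter, pseudocount of 0.5, NR names alone, and, added after seeing the data, leaving out members with another protein's Swiss-Prot name) gave 23 to 32 and 14 to 25. No called member changed direction in any setting run over the samples, which their choice by difference in the same libraries largely fixes. The cause of these changes was not tested.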
